A study of Homo sapiens with 6 samples.

Results

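DLX2, JMJD1C, CPEB2, EYA1, RUNX2, LAMP5, ARID1B and SATB1 lie outside the HOX clusters and are known as direct targets of MLL fusion proteins. These 8 genes, read by 22 probe sets, were chosen by name, and every probe set annotated to one of them was followed among the 49293 probe sets and 18239 genes tested. DLX2, RUNX2, CPEB2, JMJD1C and SATB1 fell in MV4;11 cells treated with MI-389, and LAMP5, ARID1B and EYA1 did not pass the test. MV4;11 is an established human leukemia cell line that carries a fusion of the MLL gene (KMT2A) with AF4. MI-389 blocks the binding of menin to MLL, per the labels.

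The DMSO group and the MI-389 group held 3 Affymetrix arrays each. Cells were kept for 6 days with 4 µM MI-389 or with solvent, at 0.25% DMSO in both groups. On day 3 the medium was renewed and compound or solvent was added again. All samples come from 1 cell line, and the labels call them biological replicates with no word on separate cultures. The p-values hence cover only how these samples vary, part of which may be technical.

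Fusions of MLL keep the part of the protein that binds menin and a domain that binds unmethylated CG-rich DNA, and they replace the rest with a partner that recruits elongation factors and the histone methyltransferase DOT1L. At their target genes the fusion protein and the marks it brings can spread from the promoter into the gene body, and such genes are transcribed strongly in leukemias with these fusions. Menin is needed for the fusion protein to hold chromatin at many of its targets, and small molecules that occupy its pocket for MLL displace it. The HOXA genes and MEIS1 are the best known targets, and the 8 genes described here belong to the less studied remainder.

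The sequences just upstream of these genes are shown first because CG dinucleotides are what the DNA-binding domain kept in MLL fusions recognises. The windows hold 250 bases before a RefSeq gene start in GRCh38.p14, 5′ to 3′ on the strand of the gene, with every CG in capitals. DLX2 and CPEB2 are shown as members that fell, LAMP5 as a member that did not pass the test, RUNX2 with both of its listed starts, and DLX1 as the genomic neighbour of DLX2.
DLX2, chr2:172102901-172103150, minus strand: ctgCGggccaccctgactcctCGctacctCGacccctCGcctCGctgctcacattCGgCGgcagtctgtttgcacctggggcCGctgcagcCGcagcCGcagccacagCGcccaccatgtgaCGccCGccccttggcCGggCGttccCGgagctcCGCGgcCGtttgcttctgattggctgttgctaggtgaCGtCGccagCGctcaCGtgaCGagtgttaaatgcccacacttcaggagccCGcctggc
DLX1, chr2:172085257-172085506, plus strand: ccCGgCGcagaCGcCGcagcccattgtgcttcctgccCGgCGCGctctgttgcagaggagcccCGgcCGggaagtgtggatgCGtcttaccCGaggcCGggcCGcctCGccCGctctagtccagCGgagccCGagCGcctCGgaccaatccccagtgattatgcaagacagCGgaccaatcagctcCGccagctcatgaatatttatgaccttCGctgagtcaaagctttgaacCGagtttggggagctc
CPEB2, chr4:15002231-15002480, plus strand: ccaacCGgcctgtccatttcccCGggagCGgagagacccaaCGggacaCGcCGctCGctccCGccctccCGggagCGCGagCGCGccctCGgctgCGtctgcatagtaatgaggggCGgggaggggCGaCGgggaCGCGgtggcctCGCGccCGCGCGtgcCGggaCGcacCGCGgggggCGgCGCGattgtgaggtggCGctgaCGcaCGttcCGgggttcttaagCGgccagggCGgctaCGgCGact
LAMP5, chr20:9514340-9514589, plus strand: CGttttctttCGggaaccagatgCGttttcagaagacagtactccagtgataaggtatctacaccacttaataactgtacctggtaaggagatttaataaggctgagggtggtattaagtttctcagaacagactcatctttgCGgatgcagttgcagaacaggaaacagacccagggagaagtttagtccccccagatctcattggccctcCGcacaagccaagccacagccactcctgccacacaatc
RUNX2 upstream start, chr6:45328080-45328329, plus strand: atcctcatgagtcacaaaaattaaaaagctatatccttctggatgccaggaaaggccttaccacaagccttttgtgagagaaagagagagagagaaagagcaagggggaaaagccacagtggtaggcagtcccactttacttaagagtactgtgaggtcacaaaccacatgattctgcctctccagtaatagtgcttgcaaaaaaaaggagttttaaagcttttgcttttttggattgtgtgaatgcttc
RUNX2 downstream start, chr6:45422025-45422274, plus strand: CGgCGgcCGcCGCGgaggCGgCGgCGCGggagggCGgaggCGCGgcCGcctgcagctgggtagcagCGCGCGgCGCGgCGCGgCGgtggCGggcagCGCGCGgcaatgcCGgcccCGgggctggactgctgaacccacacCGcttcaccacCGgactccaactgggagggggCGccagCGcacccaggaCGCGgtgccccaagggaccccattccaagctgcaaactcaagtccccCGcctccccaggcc
The window of DLX2 held 25 CG dinucleotides and that of DLX1 held 23. Of 35116 such windows of RefSeq genes, 21.6% held at least 25 and 25.8% at least 23, with a median of 11. CPEB2 had 40, a number reached by 2.16% of windows, and LAMP5 had 5, reached by 65.7%. The upstream start of RUNX2 had 0 and the downstream start 34, which 6.84% of windows reached. JMJD1C had 3 listed starts with 5, 35 and 34, SATB1 had 4 starts with 10, 9, 6 and 24, and ARID1B had 2 starts with 5 and 37. Windows were listed for 7 of the 8 members, and 7 of their 14 windows were at or above the median of all windows, a share no larger than among all windows. The counts describe letters in these windows. Whether menin or MLL is bound there was not measured.

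Values are deposited log2 RMA summaries of probe sets, each probe set being a group of short probes for 1 transcript region. An identifier ending in _a_at marks probes for alternative transcripts of 1 gene, and _x_at marks probes that may also bind other sequences. The ending _s_at marks probes shared by several transcripts, which may come from different genes. The values had array medians of 4.47 to 4.49. Arrays of the same group correlated across probe sets at 0.997 to 0.998 and arrays of different groups at 0.979 to 0.981, and probe sets are not independent replicates. The 9 hybridisation spike-in probe sets were 0.25 higher on the MI-389 arrays (8.99 to 9.08 with DMSO, 9.26 to 9.36 with MI-389). As a guide to background, control probe sets of nonspecific sequence reached 5.49 on any array when the most GC-rich of them was not counted. Of 6 measured markers of the line, LYZ (2.06), PTPRC (0.34) and MPO (0.25) rose and FLT3 (-1.41) and SPI1 (-0.66) fell, with MPO and SPI1 under 5.49 in both groups. The linear values of these 6 summed to 4758 to 4925 on DMSO arrays and 10410 to 10670 on MI-389 arrays. The rise of this sum is mainly that of LYZ, at 11.07 with DMSO and 13.13 with MI-389, and not of the markers as a set. Of 9 measured markers of other lineages, PECAM1 (0.44) and CD3D (0.32) rose, KRT18 (-1.26) and CD79A (-0.27) fell, and PAX5 did not pass at 6.66 and 6.75. Their sum was 1024 to 1057 and 1211 to 1308, and mainly follows PECAM1, the brightest of them at 9.55 and 9.99. Of the 9, 6 were under 5.49 in both groups, namely CD3D, CD3E, CD79A, HBB, EPCAM and COL1A2. The part of these marker shifts in the changes of the members was not tested. In RNA from whole cultures, fewer cells of a type and less RNA per cell cannot be told apart.

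Each gene was represented by its probe set with the highest mean over the 6 arrays, and tested with limma with Benjamini-Hochberg adjustment over all genes at 0.05. "Fell" and "rose" refer to this test. Of the 8 genes 5 fell and 0 rose, where 15.7% of all genes were lower and 18.4% higher at the same adjusted threshold. At an unadjusted p under 0.05 also 0 of the 8 rose, and no share over all genes was taken at that threshold. All 5 were more than 2-fold lower, as were 1.79% of all genes. The median change of the 8 was -1.29 and that of all genes 0.018. Of the 22 probe sets, 11 were lower and 0 higher, where 14.0% of all probe sets were lower and 14.0% higher. At least 1 group mean was above 5.49 for 12 of the 22 probe sets, and 9 of these 12 were lower, against 29.1% of all probe sets at that level. Of the 12, 11 were above it in both groups. The remaining 1, of DLX2, was above it only with DMSO, where it is high, and is among the 9. The 29.1% also includes probe sets above the level in only 1 group, 1542 in number. For such probe sets the level itself favours a change, so these shares are description only. All MI-389 arrays lay below all DMSO arrays for 14 of the 22 probe sets, as for 19.1% of all probe sets. Centring on the spike-ins turned the split over all genes to 11056 lower and 1397 higher, and 7 of the 8 members were then lower, LAMP5 and ARID1B being added. The list was drawn up with earlier results of these data known, so these shares describe it and are no independent evidence.

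**Figure D1:**
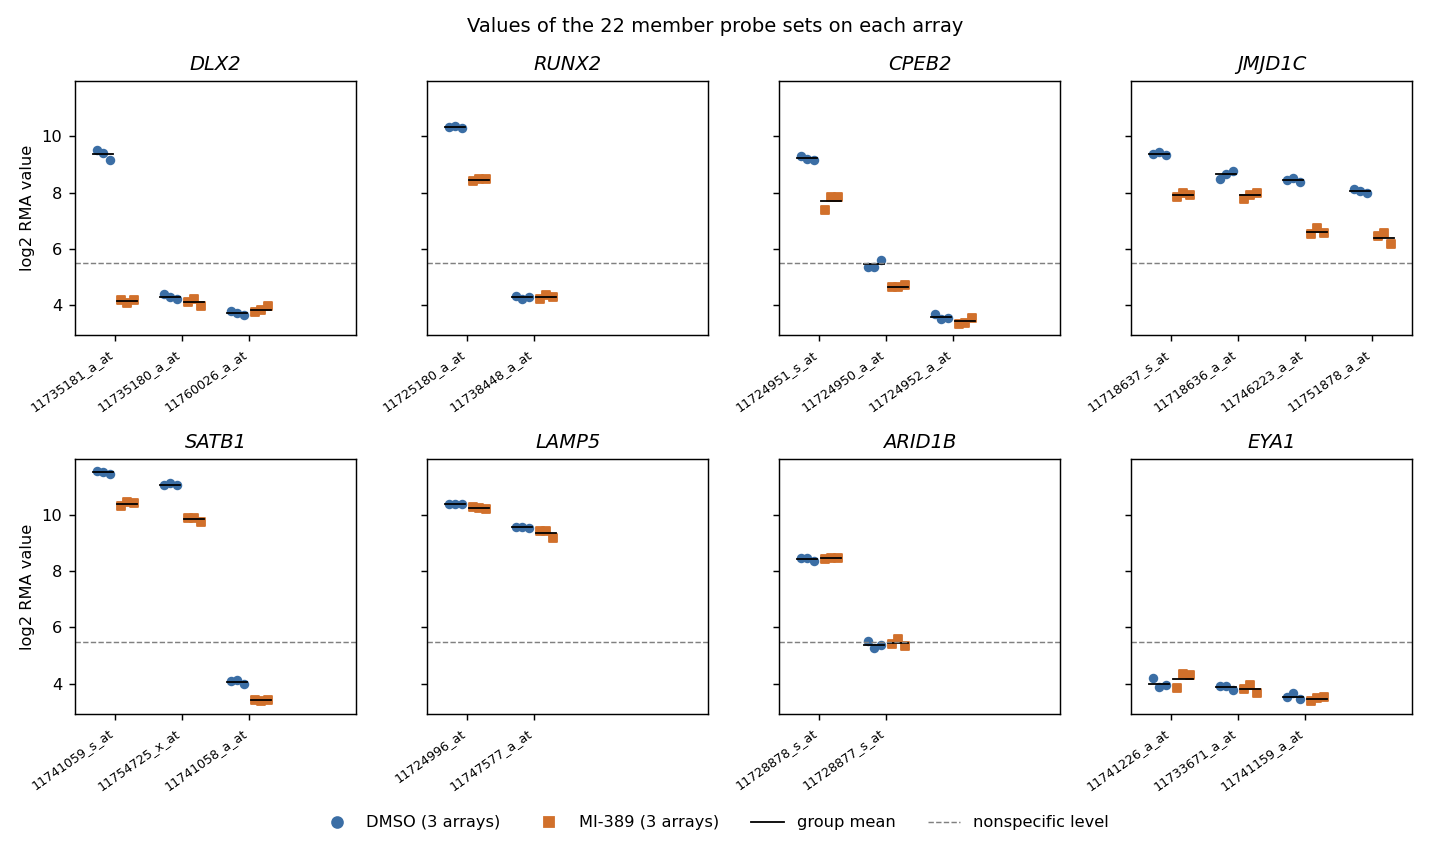
Log2 RMA value of each of the 22 probe sets (x axis, by identifier) on each of the 3 DMSO arrays (circles) and 3 MI-389 arrays (squares), 1 panel per gene, with group means as bars and the nonspecific level of 5.49 dashed. The brightest probe set of DLX2 drops from 9.18 to 9.51 with DMSO to 4.08 to 4.20 with MI-389, and all 3 EYA1 probe sets stay under the dashed line.

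DLX2 is a homeodomain transcription factor of the distal-less family, known for its roles in forebrain interneurons and jaw development. Its probe set 11735181_a_at read 9.51, 9.40 and 9.18 on the DMSO arrays and 4.18, 4.08 and 4.20 on the MI-389 arrays. The groups were 4.98 apart at their closest values, and the treated cultures read no higher than nonspecific sequence does. The change was -5.21 (SE 0.08, limma adjusted p = 1.97e-10). Taking 5.49 as the level of the dim group gives a fall of at least 14.7-fold, and its exact size and rank are not settled.

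The other DLX2 probe sets were dim in both groups. Probe set 11735180_a_at averaged 4.30 ± 0.09 (SD, n = 3) in the DMSO group and 4.11 ± 0.11 in the treated group and changed by -0.19 (limma adjusted p = 0.0904). Probe set 11760026_a_at had 3.72 ± 0.06 and 3.84 ± 0.11, a change of 0.12 (adjusted p = 0.272). Both were under 5.49 on all 6 arrays, a level at which a fall is hard to see. When its 3 probe sets were averaged, DLX2 changed by -1.76.

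RUNX2 is a runt domain transcription factor, the master regulator of osteoblast formation, and is also expressed in plasmacytoid dendritic cell and myeloid precursors. Its probe set 11725180_a_at read 10.32, 10.39 and 10.30 with DMSO and 8.40, 8.50 and 8.49 with MI-389. Arrays of a group lay close together, and the groups were 1.80 apart at their closest. RUNX2 fell 3.65-fold (log2 change -1.87, SE 0.06, adjusted p = 6.22e-09, limma). The second probe set, 11738448_a_at, lay at 4.28 ± 0.05 and 4.29 ± 0.07, under 5.49, with a change of 0.0084. The mean of both fell by 0.93 on the log2 scale.

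CPEB2 binds the cytoplasmic polyadenylation element of messenger RNAs and controls their translation. Its brightest probe set, 11724951_s_at, read 9.31, 9.21 and 9.16 with DMSO and 7.40, 7.84 and 7.85 with MI-389. MI-389 replicate 1 was the lowest of the 6 and lay apart from the other treated arrays, and the groups were 1.31 apart at their closest. CPEB2 fell 2.89-fold (log2 change -1.53, SE 0.11, limma adjusted p = 2.84e-06), by 1.38 on the log2 scale without that array. Probe set 11724950_a_at also fell, by 0.79 on the log2 scale (adjusted p = 3e-05), from 5.45 ± 0.15 to 4.66 ± 0.04, with both means under 5.49. Probe set 11724952_a_at, at 3.58 ± 0.09 and 3.43 ± 0.12, did not pass the test. The mean of the 3 probe sets fell by 0.82.

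JMJD1C belongs to the KDM3 group of jumonji domain proteins, which includes demethylases of histone H3 lysine 9, and it has been described as a cofactor of leukemic transcription factors. All 4 of its probe sets were above 5.49 in both groups, and all 4 fell. The brightest, 11718637_s_at, read 9.38, 9.46 and 9.34 with DMSO and 7.85, 7.99 and 7.94 with MI-389, 1.34 apart at the closest values. The gene fell 2.77-fold (log2 change -1.47, SE 0.06, limma adjusted p = 5.56e-08), and the mean of its probe sets fell by 1.43.

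The JMJD1C probe sets did not change alike (limma's diffSplice F test, adjusted p = 4.81e-07), as was so for 28.0% of the 11822 genes with several probe sets. In the other members that fell, this test sets bright probe sets against ones at background, and it is not used for them. Probe set 11746223_a_at went from 8.45 ± 0.08 to 6.62 ± 0.10, a change of -1.83 (SE 0.07). Probe set 11751878_a_at went from 8.05 ± 0.08 to 6.40 ± 0.20, a change of -1.66 (SE 0.09). Probe set 11718636_a_at read 8.49, 8.67 and 8.79 with DMSO and 7.79, 7.93 and 7.98 with MI-389, a change of -0.75 (SE 0.08). Its change was 0.90 above that of the other 3 (diffSplice t test, adjusted p = 1.58e-07), so that within 1 gene bright probe sets ranged from a 1.68-fold to a 3.56-fold fall. The position of these probe sets in the JMJD1C transcripts was not used here, and whether they read transcripts from different starts was not tested.

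SATB1 organises chromatin loops around AT-rich sequences and is known for its role in T cell development and blood stem cells. Its brightest probe set, 11741059_s_at, read 11.56, 11.52 and 11.45 with DMSO and 10.30, 10.46 and 10.43 with MI-389. SATB1 fell 2.17-fold (log2 change -1.12, SE 0.06, limma adjusted p = 4.4e-07), with the groups 0.99 apart at their closest. The second bright probe set, 11754725_x_at, went from 11.1 ± 0.04 to 9.84 ± 0.07, a change of -1.23, close to the first. The dim probe set 11741058_a_at moved the same way by -0.67, from 4.07 ± 0.08 to 3.40 ± 0.02, with both groups under 5.49.

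LAMP5 encodes a brain and dendritic cell member of the lysosome-associated membrane proteins. Its probe set 11724996_at read 10.37, 10.40 and 10.37 with DMSO and 10.29, 10.24 and 10.21 with MI-389. All treated arrays were below all control arrays, as for 20.5% of all genes, but only by 0.09 at the closest. The change of -0.14 (95% interval -0.25 to -0.02) did not pass the limma test over all genes (adjusted p = 0.0745). The second probe set of LAMP5, 11747577_a_at, went from 9.56 ± 0.02 to 9.35 ± 0.14, a change of -0.21 (adjusted p = 0.0641), and the diffSplice F test of a difference between the probe sets gave an adjusted p of 0.634. LAMP5 passed in 5 of 16 alternative settings, among them the mean of both probe sets (-0.17, adjusted p = 0.0255, limma). The intervals of both probe sets lie above -0.38, so a fall of the size seen for SATB1 is outside them.

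ARID1B is a DNA-binding subunit of the BAF chromatin remodelling complex. Its probe set 11728878_s_at read 8.46, 8.46 and 8.35 with DMSO and 8.42, 8.48 and 8.46 with MI-389. The groups overlapped, and the change was 0.03 (95% interval -0.10 to 0.16, limma adjusted p = 0.732). The second probe set, 11728877_s_at, lay close to the nonspecific level at 5.38 ± 0.12 and 5.43 ± 0.13. After centring on the spike-ins, which lowers every gene by the same 0.25, ARID1B changed by -0.22 (adjusted p = 0.0243, limma).

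EYA1, a protein phosphatase and partner of sine oculis homeobox factors, was under 5.49 on all arrays with all 3 of its probe sets, which ranged from 3.39 to 4.34. The brightest, 11741226_a_at, read 4.19, 3.86 and 3.94 with DMSO and 3.85, 4.34 and 4.30 with MI-389. The groups overlapped, and the change was 0.17 (95% interval -0.12 to 0.46, limma adjusted p = 0.383). Without MI-389 replicate 1 it was 0.32 (adjusted p = 0.0301). At this level a fall of EYA1 would be hard to see.

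**Figure D2:**
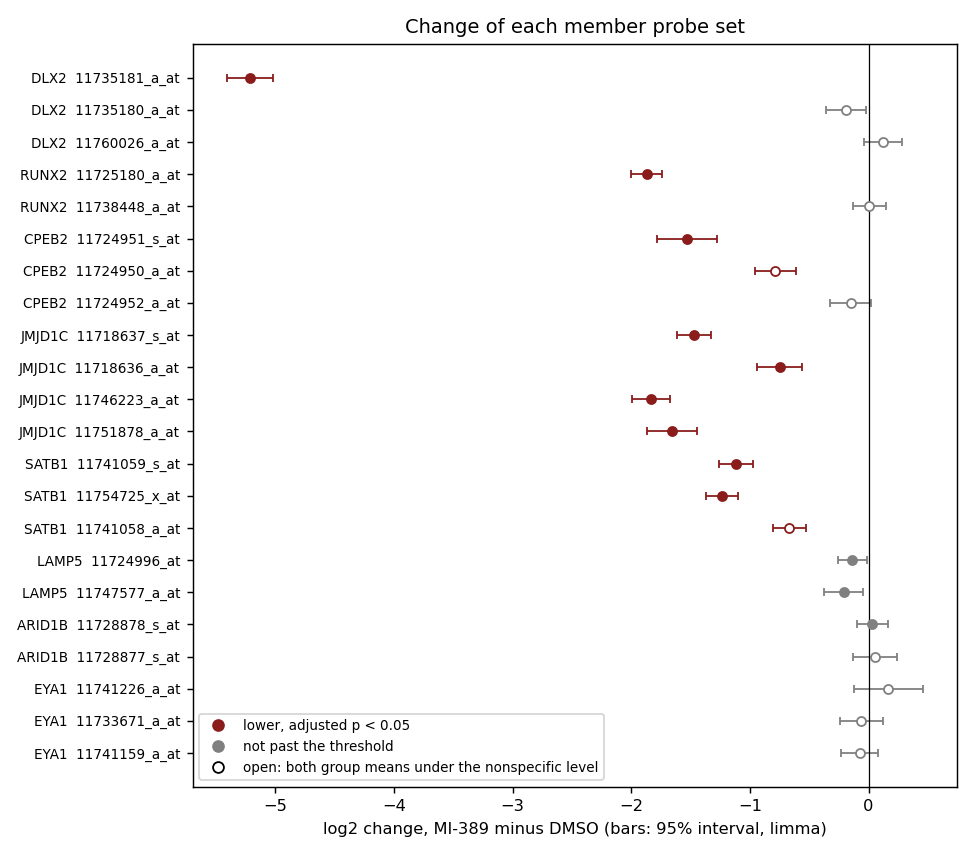
Log2 change (MI-389 minus DMSO, x axis) of each of the 22 probe sets with its 95% interval from limma, red where lower at an adjusted p under 0.05 and open where both group means were under 5.49. The 4 JMJD1C probe sets lie between -1.83 and -0.75, and the 10 open symbols include 2 of the 11 called probe sets.

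In the order of change by gene, DLX2 lay apart, also by its bound of at least 14.7-fold against 3.65-fold for RUNX2. RUNX2 (-2.00 to -1.74), CPEB2 (-1.78 to -1.28) and JMJD1C (-1.61 to -1.33) followed, and each of these intervals overlapped that of its neighbour in the order. The interval of SATB1 (-1.26 to -0.98) lay above that of JMJD1C. The differences between genes were not tested. Genes with a dim group have no settled place in a rank from the lowest change. Among 18239 genes, RUNX2 was at 84, CPEB2 at 133, JMJD1C at 148 and SATB1 at 265. This order is that of the brightest probe sets. With the mean of all probe sets, JMJD1C (-1.43) and SATB1 (-1.01) lay below RUNX2 (-0.93) and CPEB2 (-0.82). DLX2 was then at -1.76, much nearer to JMJD1C, so that its distance from the others rests on 1 bright probe set.

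The families of the members were followed as lists, drawn up with earlier results of these data known. Outside the BAF list, 35 family members, partners and targets other than the 8 genes were measured. Of these, 7 rose and 6 fell, shares near the 18.4% and 15.7% of all genes, and their median change was 0.024. In the DLX family, DLX1 fell with DLX2, and DLX3 (0.06), DLX4 (0.03), DLX5 (-0.14) and DLX6 (0.13) were not called and under 5.49 in both groups. DLX1 is the partner of DLX2 in forebrain development and its neighbour in the genome. Its brightest probe set read 9.96, 10.1 and 9.88 with DMSO and 6.84, 6.95 and 6.71 with MI-389, an 8.85-fold fall (log2 change -3.15, SE 0.08, limma adjusted p = 2e-09). The treated values of DLX1 stayed above 5.49, and its second, dim probe set also fell (-0.67). With the mean of both, the change of DLX1 was -1.91.

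Of the RUNX proteins, which share the partner CBFB, RUNX3 fell by 0.34 on the log2 scale (SE 0.06, adjusted p = 0.00115, limma) and CBFB by 0.22 (adjusted p = 0.011). RUNX1, the main family member of blood stem cells, went from 10.1 ± 0.08 to 9.95 ± 0.08, a change of -0.13 that did not pass (adjusted p = 0.159). Of 7 RUNX1 probe sets 3 fell, and the largest of these falls, -1.24, was that of probe set 11732933_a_at, which read 5.85, 5.96 and 5.85 with DMSO and 4.55, 4.71 and 4.68 with MI-389. The other falls, of 11728762_x_at (-0.48) and 11745150_x_at (-0.27), were under 5.49 in both groups. Probe set 11742191_a_at, as bright as the representing one, changed by -0.13 and was not called. When its 7 probe sets were averaged, RUNX1 changed by -0.34 and passed the test (adjusted p = 1.7e-04, limma). Of these 7, 4 were under 5.49 in both groups, so this average does not settle a fall of RUNX1. Of 7 genes known as targets of RUNX2 in bone, SPP1 rose and BGLAP and COL1A1 fell, where 18.4% of all genes rose and 15.7% fell. The median change of the 7 was 0.023, and 5 of them were under 5.49 in both groups. SPP1, which encodes osteopontin, went from 3.54 ± 0.16 to 7.15 ± 0.98, at least 3.16-fold higher counting from 5.49, and all 6 of its probe sets rose. BGLAP, which encodes osteocalcin, went from 5.94 ± 0.15 to 4.73 ± 0.14, a fall of at least 1.37-fold. COL1A1 (-0.31) was under 5.49 in both groups, fell in 1 of its 5 probe sets and passed in 8 of 15 alternative settings.

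**Figure D3:**
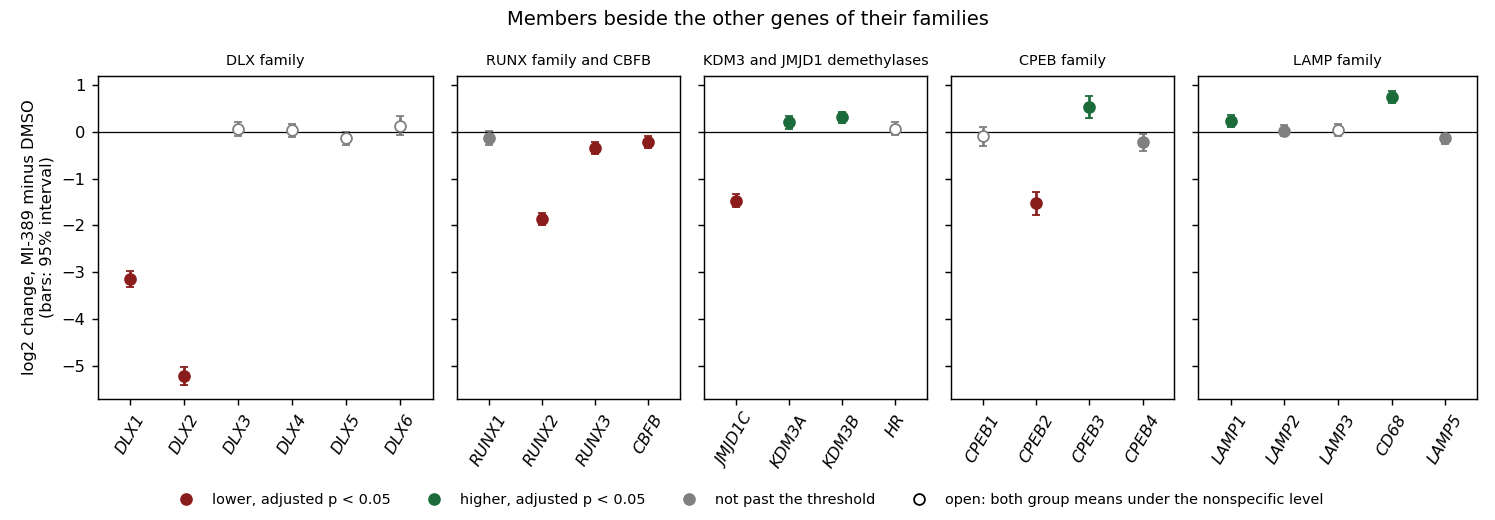
Log2 change (MI-389 minus DMSO, y axis) with its 95% interval for the genes of 5 families, 1 panel each, red where lower and green where higher at an adjusted p under 0.05, and open where both group means were under 5.49. DLX1 (-3.15) lies with DLX2 (-5.21), and RUNX2, JMJD1C and CPEB2 are the lowest points of their panels.

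The relatives of JMJD1C did not fall with it. KDM3B rose by 0.31 (SE 0.05, limma adjusted p = 8.3e-04), and KDM3A rose by 0.21 (adjusted p = 0.0212). The probe sets of KDM3A disagreed, with 1 higher, 1 lower (-0.38) and 1 not called, and their mean changed by -0.034. The call of KDM3A held in 8 of 16 alternatives and that of KDM3B in 14 of 16. The third relative, HR, changed by 0.07 with both groups under 5.49. Its other probe set, 11725150_s_at, was higher by 0.25 (limma adjusted p = 0.00792), also with both groups under 5.49. With the spike-in centring KDM3B changed by only 0.061, KDM3A by -0.047 and HR by -0.19, with HR then lower.

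In the CPEB family, CPEB3 rose by 0.54 (SE 0.11, adjusted p = 0.00286, limma), from 5.16 ± 0.10 to 5.70 ± 0.23, a rise of at least 1.16-fold counting from 5.49. Its other 2 probe sets were dim and not called. CPEB4 changed by -0.22 (adjusted p = 0.0574) and CPEB1 by -0.09, the latter under 5.49. Among the lysosomal relatives of LAMP5, CD68, a macrophage marker, rose by 0.75 (SE 0.06) and LAMP1 by 0.23, while LAMP2 changed by 0.02 and LAMP3 by 0.05 without passing. Of 9 LAMP2 probe sets, 3 were higher (0.33, 0.37 and 0.38) and 2 lower (-0.40 and -0.38). With the spike-in centring LAMP1 stood at -0.018, LAMP2 at -0.23 and LAMP3 at -0.21.

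Of 25 BAF complex genes, ARID1B included, 3 rose and 7 fell, where 18.4% and 15.7% of all genes did, and the median change was 0.0022. PHF10 fell by 1.03 (adjusted p = 1.79e-07, limma), ARID2 by 0.79 and BCL7B by 0.58. The risers SMARCD3 (0.25), SMARCE1 (0.19) and ACTL6A (0.16) each turned below 0 with the spike-in centring, to -0.0071, -0.064 and -0.097, and their calls held in 9, 7 and 4 of 16 alternatives. ARID1A, the paralogue of ARID1B, changed by 0.10 without passing. Of 11 measured genes of the EYA, sine oculis and DACH network, EYA1 included, 9 were under 5.49 in both groups. EYA3 rose by 0.38 (adjusted p = 0.00114, limma), and this call held in 13 of 16 alternatives. Of 5 EYA3 probe sets only 1 was higher, and 4 were under 5.49 in both groups. SIX5 fell by 0.49, from 5.84 ± 0.18 to 5.35 ± 0.12, a fall of at least 1.28-fold down to 5.49.

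Genes next to the members were then compared, a step added after the fall of DLX1 had been seen. The nearest protein-coding gene on each side, by RefSeq gene order, gave 16 neighbours, all measured. Of these 5 fell, 0 rose and 11 did not pass, where 15.7% of all genes were lower. DLX1, whose fall prompted the step, is counted among the 5. The count hence describes these neighbours and is no independent evidence. The neighbours that fell lay beside members that fell, and the calls of DLX1, ITGA6, REEP3 and SUPT3H held in all 16 alternatives. DLX2 lies between DLX1 and ITGA6, and ITGA6, an integrin chain, read 7.41, 7.46 and 7.06 with DMSO and 6.24, 6.19 and 6.79 with MI-389. This was a change of -0.91 (SE 0.16, adjusted p = 0.00119, limma). REEP3, beside JMJD1C, read 8.79, 8.58 and 8.47 with DMSO and 6.32, 6.88 and 6.94 with MI-389, a change of -1.90 (SE 0.15, adjusted p = 5.41e-06). Its interval of -2.24 to -1.56 overlapped that of JMJD1C.

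SUPT3H, beside RUNX2 and itself reported as a target of MLL fusions, went from 5.88 ± 0.11 to 4.96 ± 0.13, a fall of at least 1.31-fold down to 5.49. With the mean of its 2 probe sets its change moved from -0.91 to -0.47. KCNH8, beside SATB1, changed by -0.17 (adjusted p = 0.0358, limma) with both groups under 5.49, and its call held in 6 of 15 alternatives. Both neighbours of CPEB2, BOD1L1 (0.04) and C1QTNF7 (0.13), did not pass, nor did NRBF2 (0.03) on the other side of JMJD1C, CLIC5 (0.05) beside RUNX2 and TBC1D5 (-0.06) beside SATB1. None of the 6 neighbours of LAMP5, ARID1B and EYA1 passed, but 5 of the 6 were under 5.49 in both groups, where a fall is hard to see. Whether neighbours of members that fell differ from these was hence not tested.

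**Figure D4:**
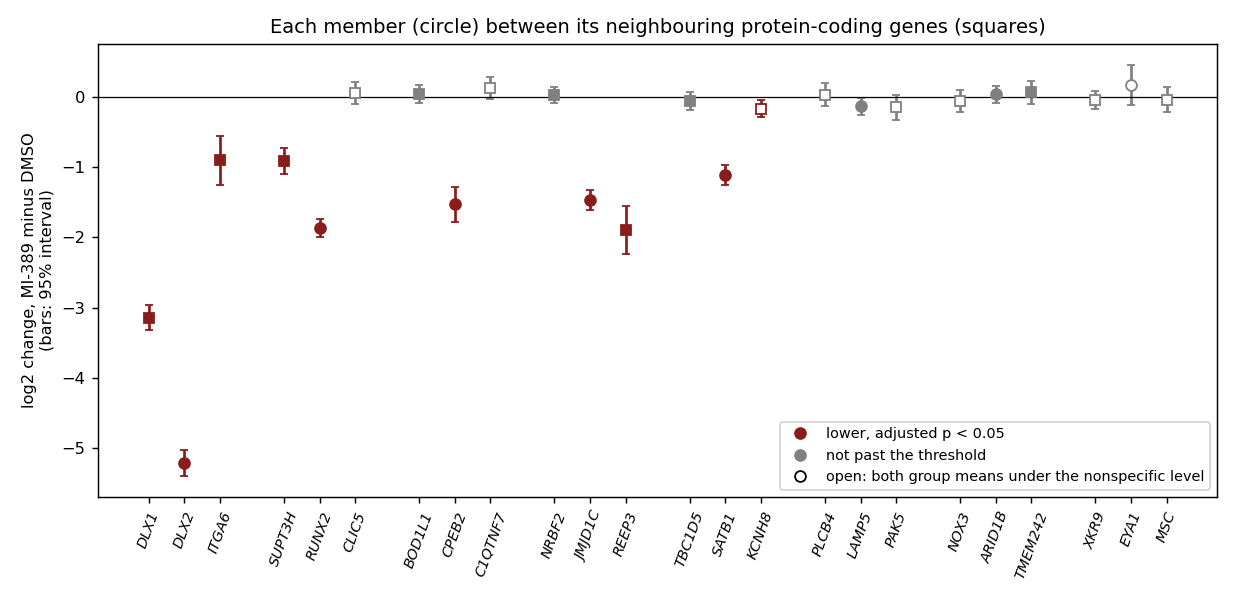
Log2 change (MI-389 minus DMSO, y axis) with its 95% interval for each member (circle) and the nearest protein-coding gene on either side (squares), red where lower at an adjusted p under 0.05 and open where both group means were under 5.49. Of the 16 squares 5 are red: DLX1, ITGA6, SUPT3H, REEP3 and KCNH8.

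By the root mean square difference of centred log2 values over the 6 arrays, the gene nearest to DLX2 was MEF2C, at 0.18. OCSTAMP (0.27), CBS (0.33), DDIT4 (0.42) and FCER2 (0.51) followed. With 2 groups and little spread within them, this difference mainly follows the size of the fall. From the lowest change, CBS ranked 1, OCSTAMP 2, MEF2C 3, DLX2 4, DDIT4 5 and FCER2 6. The nearness hence restates the fall of DLX2 and is no separate evidence of a shared profile. All 5 had a treated mean under 5.49, as had DLX2, so the order and the likeness are not settled. MEF2C read 5.57 on MI-389 replicate 2, just above that level. As bounds, MEF2C fell at least 32.7-fold, DDIT4 at least 16.1-fold and FCER2 at least 8.89-fold.

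A further list held 22 other genes reported as targets of MLL fusions, drawn up from general knowledge with earlier results of these data known. Of these 14 fell and 1 rose, where 15.7% of all genes fell and 18.4% rose, and the median change was -0.57. MEF2C (-5.21), MEIS1 (-3.71) and PBX3 (-2.06) were the largest falls, and TCF4 (0.32) was the gene that rose. MEF2C and MEIS1 had treated means under 5.49, so these sizes are not settled. The members that fell other than DLX2 lay between -1.87 and -1.12, in the range of BCL2 (-1.89), FLT3 (-1.41) and CDK6 (-1.02). ZEB2 (0.07), FUT4 (-0.10) and UBASH3B (-0.08), all above 5.49, were among the 7 that did not pass.

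**Figure D5:**
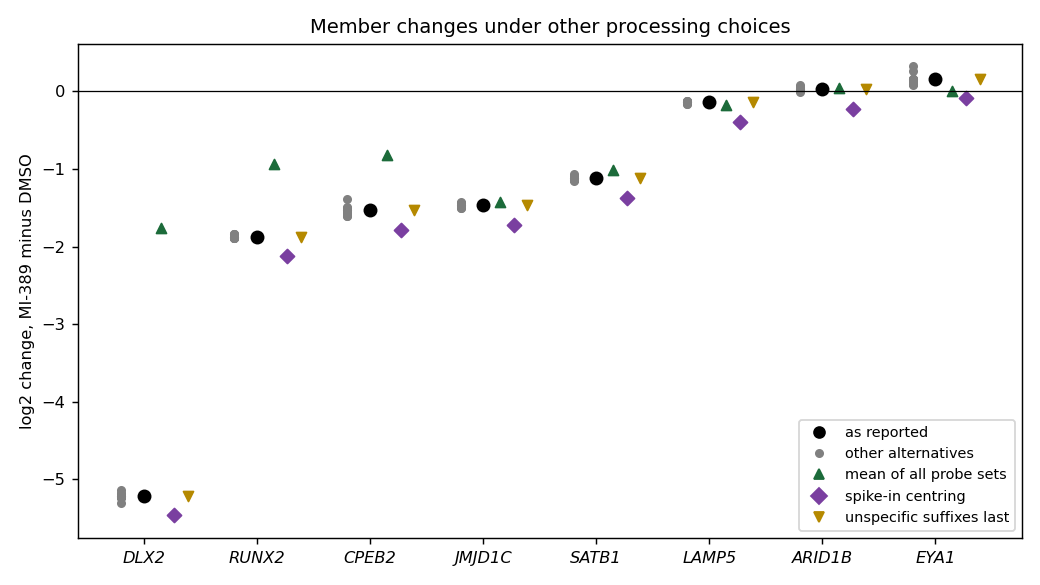
Log2 change (MI-389 minus DMSO, y axis) of each member gene as reported (black) and under the alternative settings. The mean of all probe sets moves DLX2 from -5.21 to -1.76, RUNX2 from -1.87 to -0.93 and CPEB2 from -1.53 to -0.82, and the spike-in centring lowers every gene by 0.25.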

How the data were processed

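RNA from 6 samples of MV4;11 cells was measured on Affymetrix 3-prime arrays. The deposited values are log2 RMA summaries, 1 per probe set, made by the authors with RMA and limma, per the submitters' processing notes. Versions and settings: not given in the sources used here. Arrays have no sequencing depth, and their number, 3 per group, limits the precision.

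Of 49386 probe sets, 93 controls were left out of tests. The platform annotation gave gene names, which were updated by Entrez ID through the RefSeq table of GRCh38.p14: 45253 probe sets had 1 gene (45172 matched), 1327 several and 2713 none. The test was limma 3.58.1 in R 4.3.3, two-sided, with no covariates. Each gene took its brightest 1-gene probe set. Differences between probe sets of a gene were tested with diffSplice. The script was tested on simulated data. RMA compresses dim values, so folds of dim genes are understated.

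The members and lists were chosen with earlier results of these data known. The genes named are all members, all genes of the DLX, KDM3, CPEB, RUNX and LAMP families, and up to 3 risers and 3 fallers of the other lists. The 5 genes nearest to DLX2 by centred log2 values are named as well. Neighbours and other genes named were chosen after values were seen.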

Additional observations from a re-analysis of the deposited data

How the results depend on the processing

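The member genes that fell numbered 5 to 7 over 16 alternatives, and DLX2, RUNX2, CPEB2, JMJD1C and SATB1 were lower in all of these. Nothing in the labels ties equal replicate numbers to 1 day or batch, and deviations of same-numbered arrays correlated at -0.18, 0.03 and -0.11. With the replicate block, 5 member genes and 11 member probe sets fell, as without it, and 2 other fusion targets rose in place of 1. With arrays centred on spike-ins, 19 member probe sets fell in place of 11 and 0 other fusion targets rose. Over all features that centring gave 11056 genes lower and 1397 higher, and 30190 probe sets lower and 2901 higher, with a median gene change of -0.23. Against a fold of 1.2 (limma treat) the counts were 1175 and 1282 genes and 2755 and 2591 probe sets, in place of 2862 and 3352 genes and 6923 and 6877 probe sets, and 0 other fusion targets rose. Leaving out each array in turn gave 0 to 1 member genes and 0 to 1 member probe sets higher (EYA1, without MI-389 replicate 1), and 1 to 2 other fusion targets higher. Under the spike-in centring ARID1B (-0.22), the dim RUNX2 probe set (-0.24), DLX3 (-0.19), DLX4 (-0.22), HR (-0.19), LAMP2 (-0.23) and LAMP3 (-0.21) turned to lower. KDM3A (-0.047), LAMP1 (-0.018), MPO (-0.0025), SMARCD3 (-0.0071), SMARCE1 (-0.064) and ACTL6A (-0.097) turned below 0 and were no longer called. With probe sets ending in plain _at preferred to _a_at, _s_at and _x_at, CPEB3 (-0.064), PTPRC (-0.0073) and SMARCE1 (-0.021) lost their rise, as did KDM3A (-0.034) with the mean of all probe sets. Why these turned was not tested, other than that the centring lowers every gene alike. Probe sets under 5.49 limit what can be seen, with 10 of the 22 member probe sets under it in both groups.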
